A study of Rattus norvegicus with 24 samples.

Results

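Thyroid hormone is released from the gland mainly as thyroxine (T4), a prohormone, and becomes active when a deiodinase removes an outer-ring iodine to give triiodothyronine (T3). Membrane transporters carry both forms across cells, and T3 acts through nuclear receptors that sit on target genes with corepressors or coactivators. The thyroid makes the hormone but also contains this machinery itself, and type 1 deiodinase is among the enzymes by which the gland releases T3 directly. The 9 genes described here were the deiodinases Dio1, Dio2 and Dio3, the transporter gene Slc16a10, the receptor genes Thra and Thrb, and the target genes Klf9, Hr and Thrsp. They were chosen by name, as every non-control probe whose gene name on the array equalled 1 of these symbols. Each gene had 1 probe, printed on 2 spots, so the 9 probes were taken from 30367 probes on the array.

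Probe positions on the rn4 build of the rat genome were, per the array annotation, chr5:128386555-128386614 for Dio1, chr6:114308225-114308284 for Dio2, and chr6_random:1589962-1590021 for Dio3. The Slc16a10 probe lay at chr20:44211914-44211973. The receptor probes lay at chr10:87537328-87537387 for Thra and chr15:9282955-9283014 for Thrb. The target probes lay at chr1:226445625-226445684 for Klf9, chr15:50972068-50972127 for Hr and chr1:154651216-154651275 for Thrsp. All 9 were 60-base probes to the annotated transcript of their gene. The sequences of 4 of them are shown because they say which transcripts the signal can come from. The receptor probes are set side by side because Thra and Thrb encode closely related proteins and their probes cover the same stretch of the hormone-binding domain. The capitals mark bases that match the other receptor's probe where the 2 overlap.
Thra: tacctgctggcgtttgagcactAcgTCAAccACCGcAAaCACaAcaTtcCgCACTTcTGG
Thrb: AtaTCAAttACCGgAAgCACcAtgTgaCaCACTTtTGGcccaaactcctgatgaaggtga
Over the 38 overlapping bases 25 matched (65.8%), and the longest run of matches was 5 bases, so the receptor probes differed along the whole overlap. The array annotation lists more than 1 transcript of Thra for its probe, so the Thra signal is a sum over splice forms, of which 1 known form (alpha 2) does not bind hormone. The Dio1 and Dio2 probes are shown because both end at a codon that matters for these enzymes, given in capitals.
Dio1: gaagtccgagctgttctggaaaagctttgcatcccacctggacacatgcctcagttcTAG
Dio2: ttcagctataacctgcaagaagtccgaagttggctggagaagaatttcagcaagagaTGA
Deiodinases carry selenocysteine, which is coded by an in-frame UGA. The Dio1 probe ends at the TAG stop codon of its reading frame. The Dio2 probe ends at an in-frame TGA, which selenoprotein mRNAs can read as selenocysteine or as a stop.

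The study asked whether a daily acrylamide dose of 3 mg per kg of body weight changed thyroid gene expression and plasma hormones in young rats. Thyroid glands of RccHan Wistar pups were profiled on Agilent 1-colour arrays, 24 arrays in 6 groups of 4. Dams drank acrylamide from gestational day 6 and their pups stayed on the dose until postnatal day 35 ± 3, while control animals drank tap water. The groups were acrylamide females, control females, acrylamide males and control males collected at 10 PM (night), and acrylamide females and control females collected at 10 AM (morning). Males in the morning and the hormone values were not analysed here. No label says which animal a replicate came from, so the p-values reflect only the spread among these samples, which may be partly technical. The labels give no litter either, so whether arrays share a dam is unknown, and pups of 1 dam would not be independent.

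Levels below are log2 of the processed signal minus the 75th percentile of the same array, so that 0 stands for that percentile and a step of 1 is a doubling. Levels of different probes are not compared. Between 71.5% and 82.3% of spots were well above background on each array. Night arrays lay on slides 1 and 2 (males and females) and were read in scan session 1, and morning arrays lay on slides 3 and 4 and were read in session 2. Collection time therefore cannot be told apart from slide and scan session, nor sex at night from slide. The signal at which a spot counted as saturated was 778978 or 779039 in session 1 and 65496 or 65497 in session 2. At night the acrylamide arrays filled row 2 of each slide and the control arrays row 1, so treatment and array row cannot be told apart there. Of 13 markers of thyroid follicular cells, 12 or 13 were well above background on 23 arrays, and 9 on acrylamide females in the morning replicate 1. The mean level of these markers was -3.51 on that array and 1.15 to 1.78 on the other acrylamide females in the morning, against 1.91 to 2.27 on control females in the morning. That array, replicate 2 of the same group and acrylamide males at night replicate 4 stood apart in tissue or sex markers. T cell markers averaged 0.84 on that replicate 2, against -3.28 to -2.13 on control females in the morning. Parathyroid markers averaged -1.74 on that male array, against 3.46 to 4.22 on control males at night. Sex marker values are not given here, so whether these arrays match their labelled sex is not shown. Other arrays were extreme in tissue markers too. Acrylamide males at night replicate 2 had the lowest skeletal muscle mean of any array (1.65). Acrylamide females in the morning replicate 3 had the highest oesophageal epithelium mean (2.62). Only the first 3 arrays are meant below by the 3 arrays that stand apart. Acrylamide differences of the 9 genes that moved by over 1.5 times or changed sign without 1 or all of those 3 arrays are also given without at least 1 of them.

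None of the 9 genes was called changed in any acrylamide comparison. A gene was called changed at a Benjamini-Hochberg adjusted p under 0.05 over the 23416 probes tested, in a limma fit to all 24 arrays. All 9 probes passed the filter on dim probes, and 0 of 9 were called in females at night, where 0% of all probes were called. The count was also 0 of 9 in males at night, against 0% of all probes, and 0 of 9 in morning females, against 1.83% of all probes. At an unadjusted p under 0.05, 0 of 9 passed in females at night (1.77% of all probes), 3 of 9 in males (13.7%) and 2 of 9 in morning females (23.4%). The median of the 9 differences, acrylamide minus control, was -0.18, -0.58 and 0.23 in these comparisons, beside medians over all probes of 0.02, -0.01 and -0.10. Each array also held 10 spike-in sequences, which do not come from the gland, scaled in the same way. Their differences ran from -0.03 to 0.22 in females at night, 0.16 to 0.50 in males at night and -0.70 to -0.25 in morning females. Markers of other tissues also differed between arrays. The 9 pituitary markers averaged -3.03 to -0.89 on acrylamide males at night, against -4.83 to -3.84 on control males, and -4.89 to -2.22 on acrylamide females at night, against -4.79 to -3.82 on control females. In the morning, 8 oesophageal epithelium markers averaged 2.18 and 2.62 on acrylamide replicates 1 and 3 and -0.52 and -2.21 on replicates 2 and 4, against -2.15 to -0.91 on control females. Their part in the values of the 9 genes was not tested. The mean of the 3 acrylamide differences called 0 of 9 genes, against 0.00427% of all probes, and 2 of 9 had an unadjusted p under 0.05, against 6.67% of all probes. These were Dio3, at a mean difference of 0.80 (95% interval 0.17 to 1.43, adjusted p 0.669), and Klf9, at 0.26 (0.01 to 0.50, adjusted p 0.743).

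**Figure D1:**
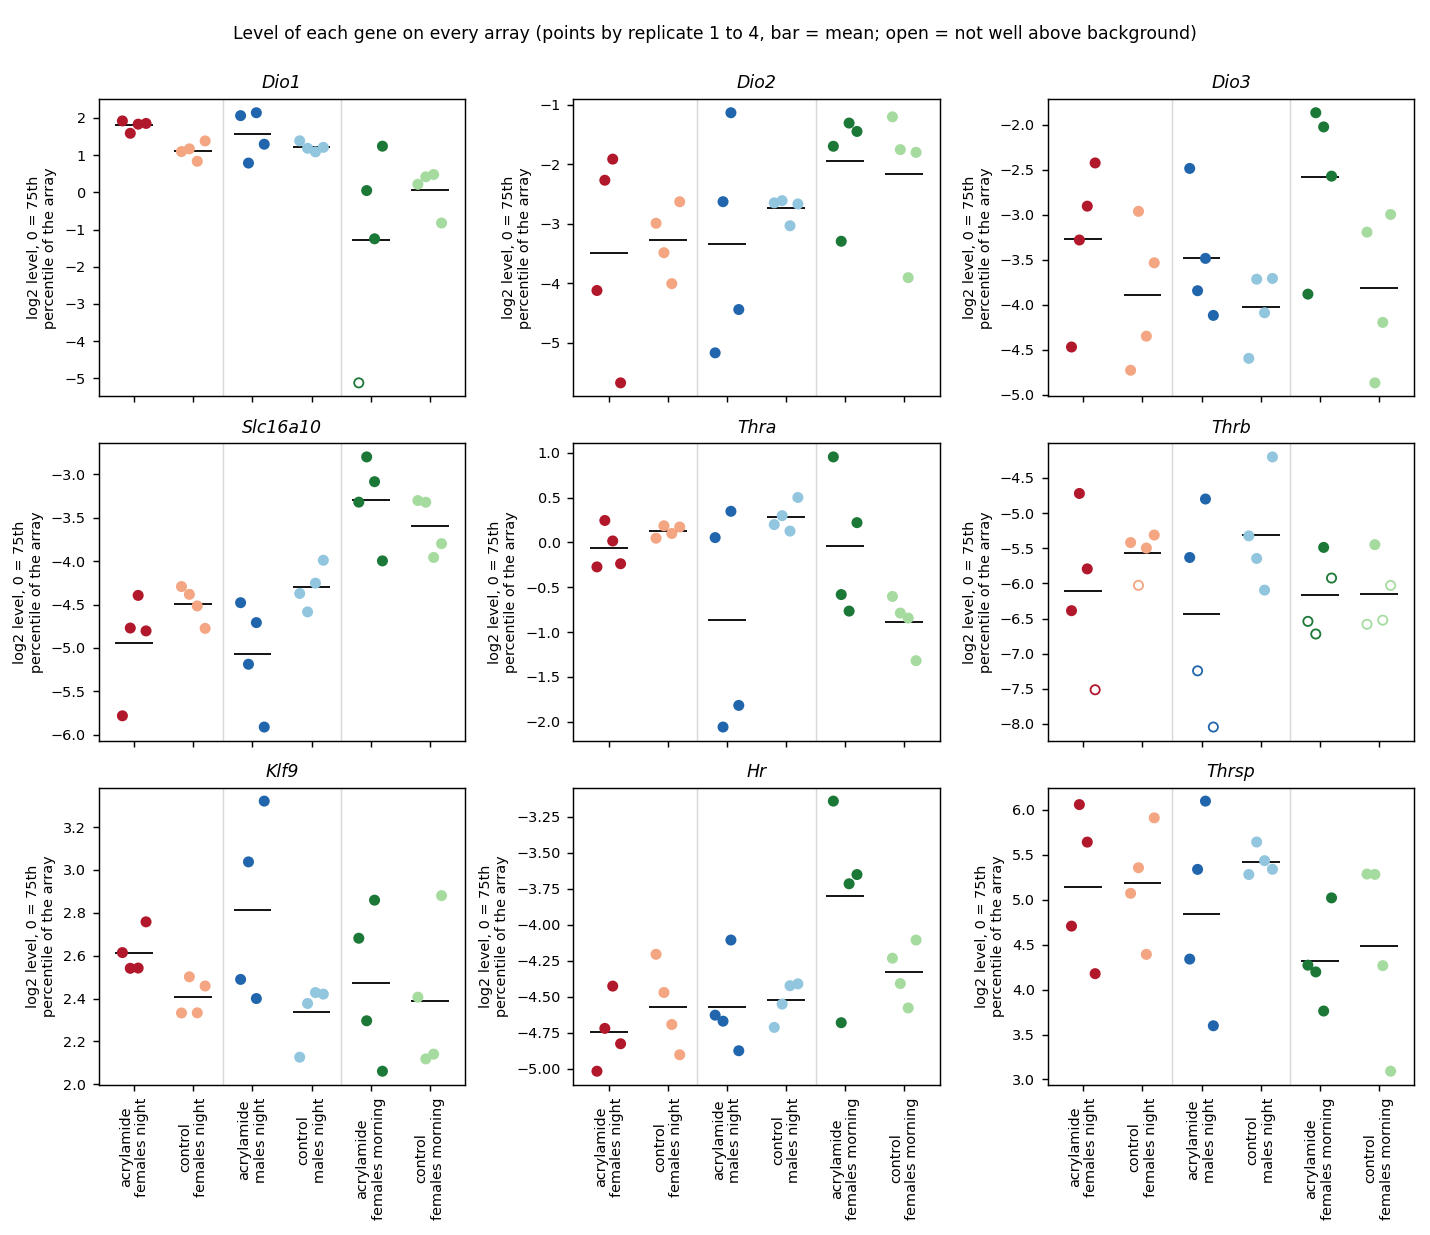
Log2 level of each of the 9 genes on every array (vertical axis, 0 is the 75th percentile of the array), with the 6 groups along the horizontal axis, points for replicates 1 to 4 in each group and a bar for the group mean. Open points were not well above background. Dio1 of acrylamide females at night lies wholly above control females at night (1.59 to 1.92 against 0.84 to 1.38), and Dio1 of acrylamide females in the morning runs from -5.12 to 1.24.

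Dio1, which can activate or inactivate the hormone and is itself a known target of T3, was the deiodinase with the clearest separation at night. Its level in females at night was 1.92, 1.59, 1.83 and 1.85 on acrylamide arrays, against 1.10, 1.17, 0.84 and 1.38 on control arrays. Every acrylamide array was above every control array. Groups did not overlap in the higher direction for 3.64% of all probes. The difference was 0.68 ± 0.79 (SE, 95% interval -0.96 to 2.32), which is 1.60-fold, with an adjusted p of 1.00. When only these 8 arrays were fitted, the SE was 0.14 and the adjusted p 0.516. The SE in the fit to all arrays includes the spread of Dio1 in the morning.

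Dio1 in males at night was 2.06, 0.79, 2.14 and 1.29 on acrylamide arrays, against 1.39, 1.19, 1.09 and 1.21 on control arrays. The acrylamide arrays lay on both sides of the narrow control range, and the difference was 0.35 ± 0.79 (SE, adjusted p 0.850). Morning females had Dio1 levels of -5.12, 0.05, -1.25 and 1.24 on acrylamide arrays, against 0.22, 0.42, 0.48 and -0.82 on control arrays. The groups overlapped, and the lowest value, on replicate 1, was the only Dio1 value not well above background. The SD was 2.76 on these acrylamide arrays and 0.61 on the control arrays, while the SE below pools the spread of all 6 groups. The difference was -1.34 ± 0.79 (SE, adjusted p 0.302), and it was -0.06 ± 0.42 (SE, adjusted p 0.967) without acrylamide replicate 1. Without acrylamide replicate 4, the highest array, it was -2.18 (adjusted p 0.0672). The fit with slide as a term gave -1.02 (adjusted p 0.509). Within slide 3 the difference was -0.97 (2 acrylamide and 3 control arrays), and within slide 4 it was -1.12 (2 and 1 arrays). The difference between the acrylamide effects at night and in the morning in females was 2.02 ± 1.12 (SE, adjusted p 0.373), and so was not called. It was 0.74 ± 0.57 (SE, adjusted p 0.732) without acrylamide females in the morning replicate 1.

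The array with Dio1 at -5.12 was the one with the follicular marker mean of -3.51. The other acrylamide females in the morning had marker means of 1.29, 1.15 and 1.78 for replicates 2, 3 and 4, beside Dio1 levels of 0.05, -1.25 and 1.24. Other arrays did not all follow this order. Control females in the morning replicate 4 had Dio1 at -0.82 with a marker mean of 1.91. Acrylamide males at night replicates 2 and 4, with marker means of 2.54 and 2.77, had lower Dio1 (0.79 and 1.29) than replicates 1 and 3, with marker means of 2.16 and 2.14 (2.06 and 2.14). All 13 follicular markers had a negative difference in acrylamide females in the morning, and 2 of 13, Duox2 and Foxe1, were called lower, against 1.83% of all probes called in either direction. The part of follicular content in the Dio1 values was not tested. In whole glands, fewer cells of a type and less RNA per cell cannot be told apart.

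**Figure D2:**
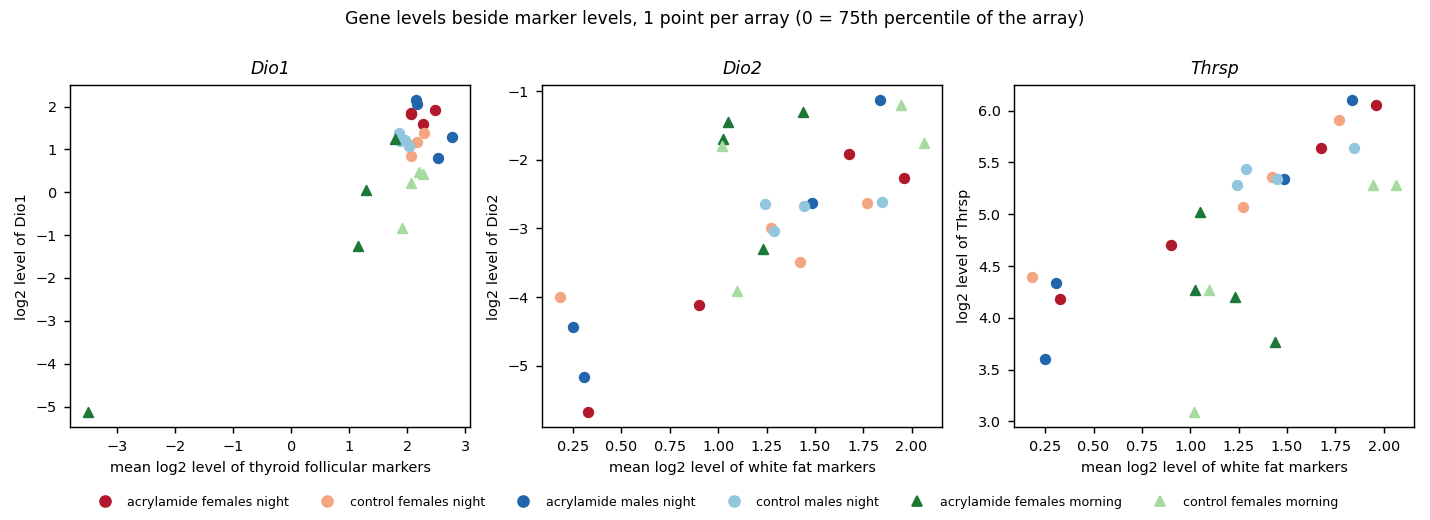
Each point is 1 array. The left panel sets the log2 level of Dio1 (vertical) against the mean log2 level of 13 follicular markers (horizontal), and the other panels set Dio2 and Thrsp against the mean of the white fat markers. 1 array of acrylamide females in the morning lies alone at -3.51 for follicular markers and -5.12 for Dio1, and the night arrays with white fat means under 0.5 have Dio2 levels of -4.00 or lower and Thrsp levels under 4.5.

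Dio2, which converts T4 to T3 inside the cell and is known for this role in brown fat and pituitary, varied widely between arrays of the same group. In females at night it was -4.12, -2.27, -1.91 and -5.67 on acrylamide arrays, against -2.99, -3.49, -4.00 and -2.63 on control arrays. Night males had -5.17, -2.63, -1.14 and -4.44 on acrylamide arrays, against -2.65, -2.61, -3.03 and -2.67 on control arrays. The control males spanned a narrow range that lay inside the acrylamide range. The SD in males at night was 1.82 on acrylamide arrays and 0.20 on control arrays (n = 4 each). Morning levels of Dio2 were -1.70, -3.29, -1.31 and -1.45 on acrylamide arrays, against -1.21, -1.76, -3.90 and -1.80 on control arrays, and 1 array of each group lay well below the rest. Differences were -0.22, -0.60 and 0.23 in night females, night males and morning females, each with an SE of 0.81, and none was called (adjusted p 1.00, 0.734 and 0.881). Without acrylamide males at night replicate 4 the difference in males was -0.24 (adjusted p 0.973). In the morning it was 0.15 without acrylamide replicate 1, 0.68 without replicate 2 and 0.79 without the 3 arrays that stand apart (adjusted p 0.961, 0.621 and 0.784).

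Dio2 and Thrsp were both low on the night arrays with the lowest white fat marker means. White fat markers, of which 7 were tested, averaged 0.33 on acrylamide females at night replicate 4, 0.31 and 0.25 on acrylamide males at night replicates 1 and 4, and 0.18 on control females at night replicate 3. Dio2 was -5.67, -5.17, -4.44 and -4.00 on those arrays, and Thrsp was 4.18, 4.34, 3.60 and 4.39. Brown fat markers were also lowest there, at 1.36, 1.98, 1.36 and 1.93, together with acrylamide females at night replicate 1 at 1.82. On that replicate 1 Dio2 was also low, at -4.12, while the white fat mean was 0.90 and Thrsp was 4.71. On acrylamide males at night replicate 3 the white fat mean was 1.83, Dio2 was -1.14 and Thrsp was 6.10. The morning arrays did not show this pairing. Thrsp was lowest on control females in the morning replicate 4 (3.09), where Dio2 was -1.80, and Dio2 was lowest of the morning arrays on replicate 3 of that group (-3.90), where Thrsp was 4.27, at white fat means of 1.02 and 1.10. The part of fat in the Dio2 and Thrsp values was not tested.

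Dio3, which inactivates T4 and T3 by inner-ring deiodination and is known mainly from fetal tissue and placenta, had a positive difference in each of the 3 comparisons. Its morning levels were -3.88, -1.87, -2.02 and -2.57 on acrylamide arrays, against -3.19, -4.87, -4.20 and -3.00 on control arrays. Replicates 2, 3 and 4 of the acrylamide group were above all controls, and replicate 1 was inside the control range. The difference was 1.23 ± 0.52 (SE, 95% interval 0.14 to 2.31), or 2.34-fold, with an unadjusted p of 0.0288 and an adjusted p of 0.168. Within slide 3 it was 2.14 (2 acrylamide and 3 control arrays), but within slide 4 it was -0.23 (2 and 1 arrays), so the direction did not hold within both slides. Dio3 in females at night was -4.47, -3.28, -2.90 and -2.43 on acrylamide arrays, against -4.73, -2.96, -4.35 and -3.53 on control arrays. Night males had -2.49, -3.84, -3.49 and -4.12 on acrylamide arrays, against -4.60, -3.72, -4.09 and -3.71 on control arrays. Both night comparisons overlapped, with differences of 0.62 ± 0.52 (SE, adjusted p 1.00) in females and 0.54 ± 0.52 (SE, adjusted p 0.621) in males.

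Slc16a10 encodes monocarboxylate transporter 10, which carries T3, T4 and aromatic amino acids. Its level in males at night was -4.48, -5.19, -4.71 and -5.91 on acrylamide arrays, against -4.37, -4.58, -4.25 and -3.99 on control arrays. The groups overlapped only through acrylamide replicate 1. The difference was -0.77 ± 0.31 (SE, 95% interval -1.41 to -0.13), with an unadjusted p of 0.0211 and an adjusted p of 0.352. It was -0.49 (adjusted p 0.843) without acrylamide replicate 4. Night females had levels of -5.78, -4.77, -4.39 and -4.80 on acrylamide arrays, against -4.29, -4.38, -4.52 and -4.77 on control arrays, a difference of -0.45 ± 0.31 (SE, adjusted p 1.00). Morning females had levels of -3.32, -2.80, -3.09 and -4.00 on acrylamide arrays, against -3.30, -3.32, -3.96 and -3.80 on control arrays, a difference of 0.29 ± 0.31 (SE, adjusted p 0.572), which was 0.13 (adjusted p 0.819) without acrylamide replicate 2 and 0.05 (adjusted p 0.960) without the 3 arrays that stand apart. The difference thus had the opposite sign at night and in the morning in females, and the test of that difference gave -0.74 ± 0.44 (SE, adjusted p 0.404).

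Thra encodes the receptor alpha. In males at night it was 0.05, -2.06, 0.35 and -1.82 on acrylamide arrays, against 0.20, 0.30, 0.13 and 0.50 on control arrays. Acrylamide replicates 2 and 4 lay far below every other night array, while replicates 1 and 3 lay near the controls. The difference was -1.15 ± 0.42 (SE, 95% interval -2.03 to -0.27, unadjusted p 0.0125, adjusted p 0.352). That SE pools the spread of all 6 groups, while the SD in males was 1.25 on acrylamide arrays and 0.16 on control arrays. The limma interval and p therefore understate the spread among the male arrays. Over the alternatives run the difference lay between -1.56 and -0.37 and was not called. On acrylamide replicates 2 and 4 the skeletal muscle markers averaged 1.65 and 5.37. They averaged 7.40 and 6.66 on acrylamide replicates 1 and 3 and 6.62 to 7.85 on control males. The follicular marker means were 2.54 and 2.77 on replicates 2 and 4, against 2.16 and 2.14 on replicates 1 and 3 and 1.86 to 2.03 on control males. Females at night did not show the same: muscle means were 5.39 and 3.75 on acrylamide replicates 1 and 2, where Thra was -0.27 and 0.25, the lowest and highest of that group. The part of tissue content in the Thra values was not tested.

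Thra in females at night was -0.27, 0.25, 0.02 and -0.24 on acrylamide arrays, against 0.05, 0.19, 0.10 and 0.17 on control arrays. These groups overlapped and lay close together, with a difference of -0.19 ± 0.42 (SE, adjusted p 1.00). Morning females had 0.95, -0.58, -0.77 and 0.22 on acrylamide arrays, against -0.60, -0.79, -0.84 and -1.32 on control arrays. Acrylamide replicates 1, 2 and 4 were above all controls and replicate 3 was within the control range. The difference was 0.85 ± 0.42 (SE, adjusted p 0.226). It was 0.07 within slide 3 (2 acrylamide and 3 control arrays) and 1.91 within slide 4 (2 and 1 arrays). Without acrylamide replicate 1 it was 0.51 (adjusted p 0.656).

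Thrb, which encodes the receptor beta that mediates feedback in pituitary and hypothalamus, was near background. It was well above background on 14 of 24 arrays, 3 of 4 and 3 of 4 in acrylamide and control females at night, 2 of 4 and 4 of 4 in acrylamide and control males at night, and 1 of 4 in each morning group. Its level ranged from -8.04 to -4.72 on acrylamide arrays and from -6.58 to -4.20 on control arrays. The probe passed the filter through the night groups, so its comparisons rest in part on values without a measured level. The differences were -0.54, -1.11 and -0.02 in night females, night males and morning females, each with an SE of 0.60, and none was called (adjusted p 1.00, 0.388 and 0.986). Without acrylamide males at night replicate 4 the difference in males was -0.58 (adjusted p 0.874), and the morning difference was 0.10 without acrylamide replicate 1, 0.16 without replicate 2 and 0.44 without the 3 arrays that stand apart (adjusted p 0.963, 0.890 and 0.822). In males at night the lowest values, -7.24 and -8.04, were on acrylamide replicates 2 and 4, which were also the low arrays for Thra.

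Klf9, a transcription factor induced by T3 and also by glucocorticoid, had the smallest SE of the 9 genes in the fit. In females at night it was 2.61, 2.54, 2.54 and 2.76 on acrylamide arrays, against 2.33, 2.50, 2.33 and 2.46 on control arrays. All acrylamide arrays were above all control arrays, by little. The difference was 0.21 ± 0.21 (SE, 95% interval -0.22 to 0.63), or 1.15-fold (adjusted p 1.00), and it had an SE of 0.09 and an adjusted p of 0.552 when these 8 arrays were fitted alone. Klf9 and Dio1 were thus the 2 of 9 genes whose groups did not overlap in females at night, against 5.33% of all probes in either direction. The number was 0 of 9 in night males (4.34%) and 0 of 9 in morning females (8.47%).

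Klf9 in males at night was 2.49, 3.04, 2.40 and 3.32 on acrylamide arrays, against 2.13, 2.38, 2.43 and 2.42 on control arrays. The 2 highest values were on acrylamide replicates 2 and 4, where Thra and Thrb were lowest. The difference was 0.47 ± 0.21 (SE, 95% interval 0.05 to 0.90), with an unadjusted p of 0.0312 and an adjusted p of 0.352. Without acrylamide replicate 4 it was 0.30 (adjusted p 0.843). Morning females had Klf9 levels of 2.68, 2.30, 2.86 and 2.06 on acrylamide arrays, against 2.41, 2.12, 2.14 and 2.88 on control arrays. The groups overlapped, with a difference of 0.09 ± 0.21 (SE, adjusted p 0.814). It was 0.02 without acrylamide replicate 1 and 0.15 without replicate 2 (adjusted p 0.981 and 0.685). Within slide 3 it was 0.36 (2 acrylamide and 3 control arrays), and within slide 4 it was -0.51 (2 and 1 arrays).

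Hr encodes hairless, a corepressor that binds thyroid hormone receptors and is itself induced by T3 in rodent brain. In females in the morning it was -3.14, -4.68, -3.71 and -3.65 on acrylamide arrays, against -4.23, -4.41, -4.58 and -4.11 on control arrays. Acrylamide replicates 1, 3 and 4 were above all controls and replicate 2 was below them. The SD was 0.64 on these acrylamide arrays and 0.21 on the control arrays, while the SE below pools the spread of all 6 groups. The difference was 0.53 ± 0.24 (SE, 95% interval 0.03 to 1.04), with an unadjusted p of 0.0403 and an adjusted p of 0.194. Without acrylamide replicate 2 it was 0.83 with an adjusted p of 0.0351 and was called, and without acrylamide replicate 1 it was 0.32 (adjusted p 0.624). With all arrays it was 0.21 within slide 3 (2 acrylamide and 3 control arrays) and 0.71 within slide 4 (2 and 1 arrays). Replicate 2 lay on slide 3, so leaving it out makes the groups less alike in slide. T cell markers, 8 of them tested, averaged 0.84 on replicate 2 and -4.45 to -3.67 on the other acrylamide arrays, against -3.28 to -2.13 on control females in the morning. The part of these cells in the Hr value was not tested. At night the Hr groups overlapped, with -5.02 to -4.43 in acrylamide females against -4.90 to -4.20 in control females, and -4.87 to -4.11 in acrylamide males against -4.71 to -4.41 in control males. The differences were -0.18 and -0.05, each with an SE of 0.24 (adjusted p 1.00 and 0.945), and the difference in males was 0.06 (adjusted p 0.982) without acrylamide replicate 4.

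Thrsp, also called Spot 14, is induced by T3 in liver and fat and takes part in making fatty acids. In females at night it was 4.71, 6.06, 5.64 and 4.18 on acrylamide arrays, against 5.07, 5.36, 4.39 and 5.91 on control arrays. Night males had 4.34, 5.34, 6.10 and 3.60 on acrylamide arrays, against 5.28, 5.64, 5.44 and 5.34 on control arrays. The control males again lay in a narrow range inside the acrylamide range. Morning females had 4.27, 4.20, 3.76 and 5.02 on acrylamide arrays, against 5.29, 5.28, 4.27 and 3.09 on control arrays. The differences were -0.04, -0.58 and -0.17 in night females, night males and morning females, each with an SE of 0.53, and none was called (adjusted p 1.00, 0.598 and 0.862). The difference in males was -0.17 (adjusted p 0.969) without acrylamide replicate 4, and in the morning it was -0.09 (adjusted p 0.965) without the 3 arrays that stand apart. The morning difference was -0.97 within slide 3 (2 acrylamide and 3 control arrays) and 1.56 within slide 4 (2 and 1 arrays).

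**Figure D3:**
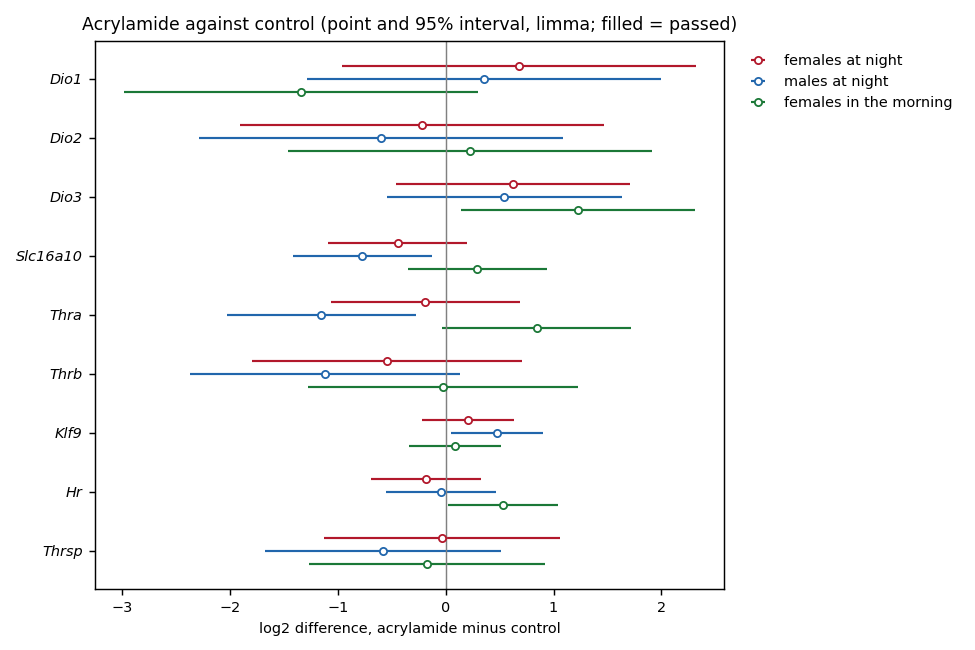
Log2 difference, acrylamide minus control, with its 95% interval from the limma fit for each of the 9 genes in night females, night males and morning females. All points are open because none of the differences had an adjusted p under 0.05, and the intervals of Dio1 and Dio2 span more than 3 log2 units.

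The arrays of acrylamide animals were more spread than those of controls for most of the 9 genes. The SD was higher on acrylamide arrays for 7 of 9 genes in night females, 9 of 9 in night males and 7 of 9 in morning females. Over all probes tested the SD was higher on acrylamide arrays for 64.6%, 72% and 81.2%, so a higher SD was common among all probes as well. No test of spread was made. By the interaction test, a difference in the acrylamide effect between males and females at night was called for 0 of 9 genes (0% of all probes), and between night and morning in females also for 0 of 9 (0% of all probes). At an unadjusted p under 0.05 these interaction tests passed 0 of 9 genes each, against 2.25% and 15.8% of all probes.

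Far more probes were called between night and morning than between acrylamide and control. In control females, night against morning, 47.6% of all probes were called, and 1 of 9 genes, Slc16a10, was called lower at night, as were 26.6% of all probes. Its level was -4.29, -4.38, -4.52 and -4.77 on control females at night, against -3.30, -3.32, -3.96 and -3.80 on control females in the morning. Every night array was below every morning array. The difference was -0.90 ± 0.31 (SE, 95% interval -1.54 to -0.25, adjusted p 0.0212), or 1.86-fold lower on the night arrays. The 10 spike-in sequences, which do not come from the gland, differed by -0.77 to 1.92 between the same arrays (median -0.20). The call was lost without control females at night replicate 4 (-0.80, adjusted p 0.0611) and without control females in the morning replicates 1 (-0.80, adjusted p 0.0620) or 2 (-0.80, adjusted p 0.0599). It was also lost with quantile normalization, at -0.40 (adjusted p 0.209), and with the deposited log2 matrix, at -0.63 (adjusted p 0.0562). The median of all probes was 0.03 as scaled here, 0.20 after quantile normalization and 0.30 in the deposited matrix.

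In acrylamide females, a comparison added after the data were seen, 54.7% of all probes were called between night and morning, among them 1 of 9 genes higher at night (27.2% of all probes) and 2 of 9 lower (27.5% of all probes). The 10 spike-in sequences differed by -0.12 to 2.42 between these arrays (median 0.34). Slc16a10 was again lower at night, by -1.64 ± 0.31 (SE, adjusted p 0.000174), and the groups did not overlap. Hr was lower at night, by -0.95 ± 0.24 (SE, adjusted p 0.00266), with 1 morning array inside the night range, and it was not called after quantile normalization (-0.43, adjusted p 0.193). In control females the Hr difference was -0.24 ± 0.24 (SE, adjusted p 0.454), and it was called there only with normexp background correction (-0.89, adjusted p 0.000137). Dio1 was higher at night, by 3.07 ± 0.79 (SE, adjusted p 0.00265). Without acrylamide females in the morning replicate 1, the array with the low follicular markers, it was 1.78 (adjusted p 0.00162), and in a fit to these 8 arrays alone the adjusted p was 0.0576. The follicular markers were higher at night on these arrays as well, 9 of 13 called higher and 1 of 13 lower. Dio2 was -1.56 ± 0.81 (SE, adjusted p 0.109) and was called only without acrylamide females at night replicate 3 (-2.08, adjusted p 0.0454).

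For Dio1, control females at night were above control females in the morning on every array, and the difference was 1.05 ± 0.79 (SE, adjusted p 0.291). It was called in a fit to these 8 arrays alone (SE 0.29, adjusted p 0.0120), with array weights (0.86, adjusted p 0.0280) and without the 3 arrays that stand apart (1.05, adjusted p 0.0390). Thra also did not overlap in control females, at 0.05 to 0.19 at night and -1.32 to -0.60 in the morning, a difference of 1.02 ± 0.42 (SE, adjusted p 0.0526). Thra was called higher at night under 8 of the alternatives, with adjusted p from 0.000321 with array weights to 0.0481 with a variance trend and robust variance. In acrylamide females the Thra difference was -0.02 ± 0.42 (SE, adjusted p 0.973), or 0.31 (adjusted p 0.554) without acrylamide females in the morning replicate 1. Dio1, Slc16a10 and Thra made 3 of 9 genes without overlap in control females, against 56.5% of all probes, and Dio1 and Slc16a10 made 2 of 9 in acrylamide females, against 44.5%. Both shares were below those of all probes. Klf9 differed by 0.02 ± 0.21 in control females and 0.14 ± 0.21 in acrylamide females (SE, adjusted p 0.948 and 0.582), with 95% intervals of -0.41 to 0.45 and -0.29 to 0.57. Between control males and control females at night 0 of 9 genes were called, against 0.00854% of all probes, and the differences ran from -0.13 for Dio3 to 0.54 for Dio2.

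**Figure D4:**
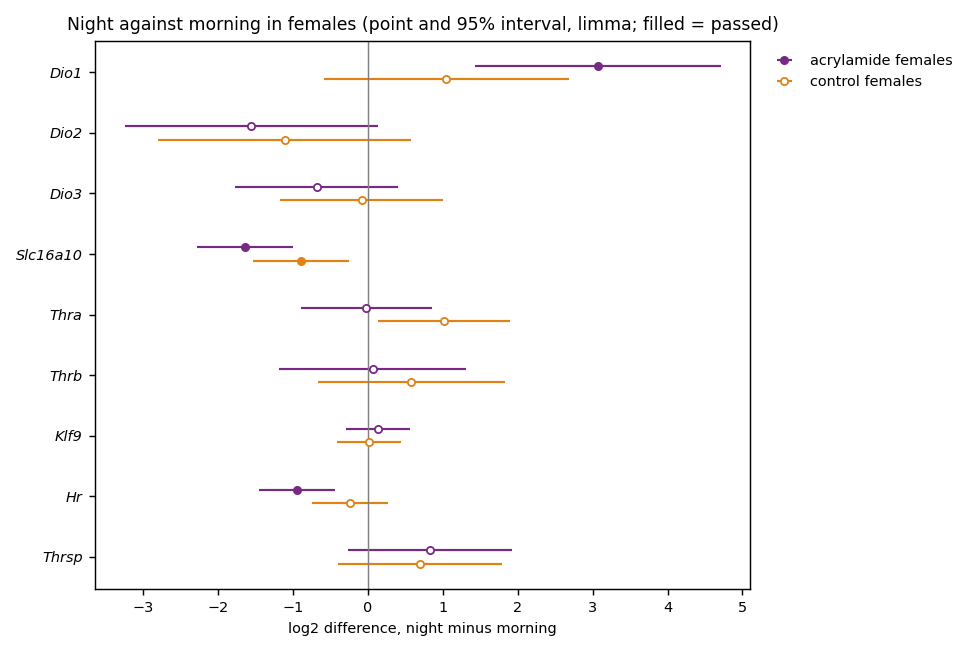
Log2 difference, night minus morning, with its 95% interval from the limma fit for each of the 9 genes in acrylamide females and control females. Filled points had an adjusted p under 0.05, which holds for Dio1, Slc16a10 and Hr in acrylamide females and for Slc16a10 in control females. Night and morning arrays also differ in slide and scan session.

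Set in order of mean level, Dio1 was highest in acrylamide females at night (1.80 ± 0.15, SD, n = 4), then acrylamide males at night (1.57 ± 0.65), control males at night (1.22 ± 0.12), control females at night (1.12 ± 0.23), control females in the morning (0.07 ± 0.61) and acrylamide females in the morning (-1.27 ± 2.76). Only the step between control females at night and control females in the morning was between groups that did not overlap. For Slc16a10 the morning groups were highest, at -3.30 ± 0.51 in acrylamide females and -3.60 ± 0.33 in control females. The step down from there to the night groups, which ran from -5.07 ± 0.63 to -4.30 ± 0.25 (SD, n = 4), was again the only one without overlap. For the other 7 genes every neighbouring pair of groups in the order of means overlapped.

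No gene of 4 wider lists of the pathway was called under acrylamide. Of 12 genes of hormone transport and binding 8 were tested, of 14 receptor partners and cofactors 14, of 19 other hormone targets 19, and of 10 genes of conjugation and iodide recovery 8. The share of all probes called was 0%, 0% and 1.83% in night females, night males and morning females. In males at night the furthest of the other targets were the myosin heavy chain genes Myh7 and Myh6, at -4.02 and -3.65 (adjusted p 0.352 each), beside the skeletal muscle marker means of 1.65 to 7.40 on acrylamide males and 6.62 to 7.85 on control males. They were also furthest in females at night, at -2.00 for Myh7 and -2.03 for Myh6. Among the cofactors Crebbp, a histone acetyltransferase, was -1.10 and Rxrg, a retinoid X receptor that pairs with thyroid hormone receptors, was -0.96 in males at night (adjusted p 0.352 each).

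In females in the morning the iodotyrosine deiodinase Iyd, which recovers iodide and is also 1 of the follicular markers, was -2.62 (adjusted p 0.107), and the sulfotransferase Sult1b1 was 2.06 (adjusted p 0.142). Of the transport and binding genes, Crym, which encodes a cytosolic T3-binding protein, was 0.84 (adjusted p 0.332). In females at night the transporter gene Slco1c1 was -1.10 and the amino acid transporter gene Slc7a5 was 0.35, and in males at night Alb, the gene of albumin, was -0.98 (adjusted p 0.486). The medians of the 4 lists lay between -0.37 and 0.29 over the 3 comparisons.

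**Figure D5:**
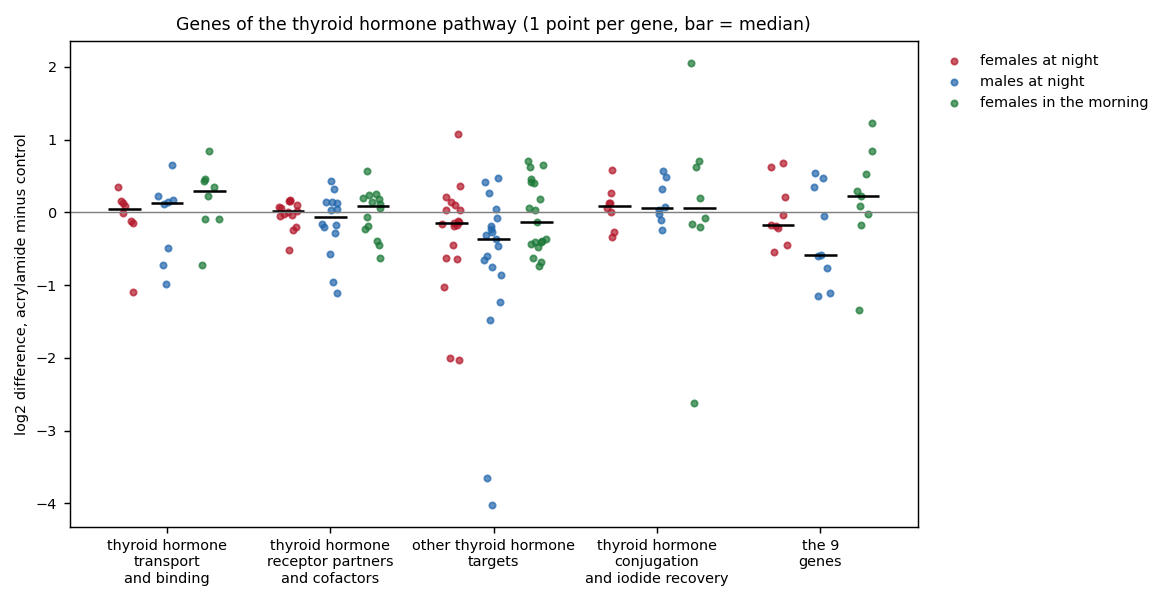
Log2 difference, acrylamide minus control (vertical), of the tested genes of 4 thyroid hormone gene lists and of the 9 genes, 1 point per gene and a bar for the median, in night females, night males and morning females. Most points lie within 1 log2 unit of 0, and none passed the test. The lowest points are Myh7 and Myh6 in males at night, at -4.02 and -3.65.

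Between night and morning the same lists did hold called genes, as did 47.6% of all probes in control females. Of 14 receptor partners and cofactors, 5 were called higher and 1 lower at night in control females. The retinoid X receptor Rxrb was 0.74 (adjusted p 0.000368) and the coactivator Ncoa1 was 0.63 (adjusted p 0.00417), while the coactivator Ncoa2 was -2.11 (adjusted p 1.05e-06). Of 19 other targets, 0 were called higher and 6 lower, among them the cell cycle inhibitor Cdkn1a at -2.02 (adjusted p 8.13e-07) and the mitochondrial carrier Ucp3 at -2.39 (adjusted p 0.000299). Of 8 conjugation and iodide recovery genes, 4 were called higher and 1 lower. Sephs2, which makes the selenium donor for selenoproteins such as the deiodinases, was -0.86 (adjusted p 6.37e-05), and the phenol sulfotransferase Sult1a1 was 0.92 (adjusted p 0.0132). Of 8 transport genes 1 was called, Slc3a2, the heavy chain of amino acid transporters that also carry thyroid hormone, at 1.15 (adjusted p 0.00199).

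In acrylamide females the counts between night and morning were 5 higher and 2 lower of 14 cofactors, 1 higher and 3 lower of 19 other targets, 5 higher and 1 lower of 8 conjugation and iodide recovery genes, and 1 higher and 1 lower of 8 transport genes, beside 54.7% of all probes. Ncoa2 was -1.42 (adjusted p 0.000126), Cdkn1a was -1.73 (adjusted p 6.88e-06) and Ucp3 was -2.97 (adjusted p 2.84e-05).

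Likeness between genes was measured as Pearson's r of deviations from the group means over 24 arrays, among 14189 named genes, and it is given as a description because arrays share their tissue make-up. For Dio1 the nearest were Kctd14 and Blnk, at r of 0.97 each, and Gng7 at 0.96. Spearman's rho was 0.63 to 0.73 for these, and r without the 2 arrays farthest from the median was 0.80 to 0.83, so the likeness rested in part on those 2 arrays. For Thra they were Poldip2, Npepl1 and Ldhd (r of 0.98, 0.98 and 0.97), and r stayed at 0.95 to 0.97 without the farthest 2 arrays. For Thrsp they were Agpat2, Pex6 and Cad (0.97, 0.97 and 0.95), with 0.94 to 0.97 without those arrays. Agpat2 encodes an enzyme of triglyceride synthesis.

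For Thrb the nearest genes were Snrk, C2cd4b and Pmm2, at r of 0.92 each. For Dio2 they were Dct, Apoc3 and Adtrp (0.89, 0.87 and 0.86), and for Klf9 they were Bloc1s1, Ttc33 and Sos2 (0.88, 0.87 and 0.87). For Hr they were Itsn1, Phldb1 and Pdk2, at 0.83, 0.83 and 0.81, falling to 0.63 to 0.67 without the 2 farthest arrays. The lowest likeness was found for Slc16a10, with Clec4a1, Pla2g2f and Or13e8 at 0.78, 0.77 and 0.76, and for Dio3, with Adora3, Fmo2 and Pfdn6 at 0.70, 0.68 and 0.63. All these r values are the 3 highest of 14189 per gene. How high the best r among so many unrelated genes would run was not tested.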

How the data were processed

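The deposited scanner files came from Agilent Feature Extraction 10.1.1.1, per the file headers, and hold a background-corrected intensity for every spot (the processed signal) with detection flags. Probe positions are on rn4, per the file headers. The authors also deposited a matrix of log2 values, each column of which followed log2 of the processed signal minus a constant, with a median of 0. From these, log2 processed signals of replicate spots were averaged after removing outlier spots, and each array's 75th percentile was subtracted. Probes well above background on at least 3 of 4 arrays of a group were tested (23416), and 6951 were not. Group means over 24 arrays were fitted with limma 3.58.1 in R 4.3.3 (lmFit, eBayes), which shares 1 estimate of the spread, with 18 residual degrees of freedom, and adjusted p over all probes tested (Benjamini-Hochberg). The fit was tested on simulated data. The array number limits the precision. The 9 genes and all lists were chosen with earlier results of these data known. Named genes were the 9 genes, up to 4 called genes per pathway list and comparison (where none was called, the 2 furthest from 0) and the 3 genes most like each of the 9. Some genes named by this rule are not reported here. Alternatives were quantile normalization, normexp background correction (offset 50), the deposited matrix, no filter, 1 probe per gene, array weights, a variance trend, the arrays of a comparison alone, a replicate block, slide as a term, and leaving out arrays. Over genes, deviations of same-numbered arrays correlated at -0.24 to 0.36, so replicate numbers were not taken as pairs.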

Additional observations from a re-analysis of the deposited data

Results flagged for a closer look

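Of 54 sets of 4 arrays (9 genes in 6 groups), 2 held an array far from the others, where chance alone flags about 1 in 20. Dio2 was -3.03 on control males at night replicate 3, while the other arrays of that group lay between -2.67 and -2.61, so that its gap took up 0.869 of the group's range, above Dixon's 95% critical value for 4 samples. Klf9 was 2.13 on control males at night replicate 1, while the others lay between 2.38 and 2.43, a gap of 0.831 of the range.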

How the results depend on the processing

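The counts of called genes among the 9 stayed at 0 for acrylamide in females at night and males at night, for the mean effect, both interactions and sex under each alternative run. In females in the morning it was 0 to 1 when arrays were left out in turn, and 0 otherwise. The count between night and morning in control females, 1 as reported, was 2 with quantile normalization, 4 with normexp, 2 without the filter, 3 with array weights, 2 with a variance trend and robust variance, 3 in the arrays alone and 3 without the 3 arrays that stand apart, and 0 to 1 when arrays were left out in turn. Thra was called in each of those 7 alternatives and in the deposited matrix (adjusted p 0.000321 to 0.0481). Thrb, near background, was called lower at night with normexp, at -0.69 in acrylamide females and -0.88 in control females (adjusted p 0.0280 and 0.00671), where it had been 0.06 and 0.58 and not called. With quantile normalization it was called higher at night in control females, at 1.75 (adjusted p 0.00533); the cause was not tested. As a replicate block, the replicate number changed no call among the 9 genes, with Slc16a10 between night and morning in control females at -0.90 (adjusted p 0.0232); in 4 of 24 same-numbered pairs over 6 comparisons the best match was the same number. Over all probes the block gave 2 calls in males at night, 2 for the mean effect and 326 in females in the morning.

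Over all probes the 429 calls in females in the morning became 1059 with quantile normalization, 218 with normexp, 18 in the deposited matrix, 111 without the filter, 4 with array weights, 0 in the arrays alone, 94 with slide as a term and 4 without the 3 arrays, and ran from 2 to 2386 when arrays were left out. In males at night the 0 calls became 3 with normexp, 2 in the deposited matrix, 1 without the filter and 4 with array weights, and 0 to 8 when arrays were left out. For the mean effect the 1 call became 3 with normexp, 0 in the deposited matrix and 6 with array weights, and 0 to 30 when arrays were left out. The night minus morning interaction ran from 0 to 264 and the sex comparison from 0 to 3 when arrays were left out, with 46 for sex under array weights. Of the calls between night and morning in control females 4912 were higher and 6226 lower, against 7250 and 5201 with quantile normalization, 3775 and 9885 with normexp, 7535 and 5205 in the deposited matrix and 4964 and 11417 without the filter. The median of all probes in males at night was 0.16 in the deposited matrix and -0.01 as reported.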

Other observations

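Klf9 is also known as a target of glucocorticoid and of the clock, and genes of both systems were listed beside it. Per1 is in both lists, so their counts are not separate. Of 17 core clock genes tested, 7 were called higher and 3 lower at night than in the morning in control females, and 6 higher and 5 lower in acrylamide females. Under acrylamide 0 of 17 were called in females or males at night, and 1 of 17 was called lower in females in the morning, against 0%, 0% and 1.83% of all probes called in night females, night males and morning females. Of 8 glucocorticoid-responsive genes, 3 were called higher and 1 lower at night in control females, and 2 higher and 1 lower in acrylamide females. Under acrylamide, beside those same shares, 0 of those 8 were called at night in either sex and 1 of 8 lower in morning females. The difference was positive for 7 of the 8 in morning females (list median 0.61), and for 3 of 8 in each night comparison. In the morning the list mean was 0.03 to 0.38 on acrylamide arrays, against -0.52 to -0.01 on control arrays. The share of all probes called was 47.6% in control females and 54.7% in acrylamide females, and night and morning arrays also differed in slide and scan session.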
